A study of Saccharomyces cerevisiae with 14 samples.

Results

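Strain 81 is 1 of 13 TAQed diploid yeast strains in which genomic DNA was compared with that of the parental diploid WT14 by array comparative genomic hybridization (aCGH). Its single array was chosen by its title, and it is 1 of 14 arrays in the series. The others are those of 12 other TAQed strains and of WT14 against itself. On every array the DNA of the named strain carried Cy5 and WT14 DNA carried Cy3, with no dye swap, so a log2 ratio (Cy5/Cy3) above 0 means more DNA in the strain than in WT14. WT14 is a cell-fusion diploid of S288C and SK1 background, and its parents were named YPH499 and S799. For strain 81, the labels give WT14 carrying the TaqI gene, induction by copper ion and heat activation of TaqI for 30 min at 42 °C, followed by growth in YPD for 24 h at 30 °C. They repeat this text for WT14, and the study's methods list WT14 with the strains made by fusion and then TaqI activation, while its results describe a control diploid in which TaqI was not activated. Strain 81 is 1 isolate, taken from the small-colony mutants with altered cell morphology, so it stands for no average effect of the treatment.

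TaqI is a heat-tolerant restriction endonuclease, and the TAQing system uses it to cut chromosomes at many sites within living cells. A cut end in yeast can be repaired from the homologous chromosome, joined to another cut end, or copied along another chromosome to its end. Copies of a chromosome part can thereby be gained without its remainder, and aCGH reads such a gain as a step in the ratio along the chromosome. It shows neither where the additional copies are joined nor their order. The ratio averages over the cells of a culture, so a smaller change in all cells and a larger change in some of them cannot be told apart. For scale, 3 copies against 2 in WT14 correspond to a log2 ratio of 0.58, and 1 copy against 2 to a log2 ratio of -1.

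The array of strain 81 was dim. Its median Cy5 signal was 25.0 over a local background of 10.0, against median Cy5 signals of 157 to 284.5 over backgrounds of 12 to 13 on the 13 other arrays. In strain 81, 80.4% of the spots were well above background in both channels, against at least 99.4% on the others. The noise SD, estimated from the differences between neighboring probes, was 0.186 in strain 81 and 0.114 in WT14. The probes lay at a median spacing of 194 bases, in coordinates of build sacCer2. With 1 array per strain no value here has a replicate, and no test was made. Differences are set against the spread of the same measure on the other arrays, and the SD given over windows of a chromosome describes neighboring windows of 1 array, which are not replicates.

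Strain 81 carried a gain of the left part of chromosome V and a gain of the right part of chromosome XV, and these were the only 2 called regions of at least 20 kb on its array. The gain on V ran from 88 to 348031, over 347.9 kb and 1746 probes. The gain on XV ran from 414470 to 1091184, over 676.7 kb and 3294 probes. In this segmentation both reached the outermost probes of their chromosome end, which depended on the processing. After the WT14 ratio, or the median of the 12 other TAQed arrays, was subtracted probe by probe, V began at 6532 and XV ended at 1074378. In the last 10 kb of XV the median was 0.20 in strain 81, 0.34 as the median of the other TAQed strains and 0.41 in WT14. The median log2 ratio of the gains was 0.56 ± 0.06 on V (SD over 35 windows of 10 kb) and 0.65 ± 0.11 on XV (SD over 68 windows), which are ratios of 1.47 and 1.57. No loss was called among the 45 segments of the array, 11 of which were gains.

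No other array showed a gain over either stretch. In the gained part of V the median log2 ratio was 0.56 in strain 81. It lay between -0.11 and -0.01 in 10 other TAQed strains, was -1.15 in strain 113 and -1.10 in strain 117, and was 0.02 in WT14. In the gained part of XV it was 0.65 in strain 81, between -0.01 and 0.09 in the 12 other TAQed strains and -0.01 in WT14. The distance between strain 81 and the highest other array was thus far larger than the spread of the others, whose SD was 0.04 on V (11 arrays, without strains 113 and 117) and 0.03 on XV (13 arrays). Arrays were kept where the median over the stretch was within 0.3 of 0. On XV this kept strain 117, with a median of 0.06, although it had about 1 copy from 980207 to 1071114. Strain 81 shared its slide with WT14 and strains 1, 73, 76 and 83. On these 5 arrays the medians ranged from -0.07 to 0.02 on V and from -0.01 to 0.04 on XV.

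**Figure D1:**
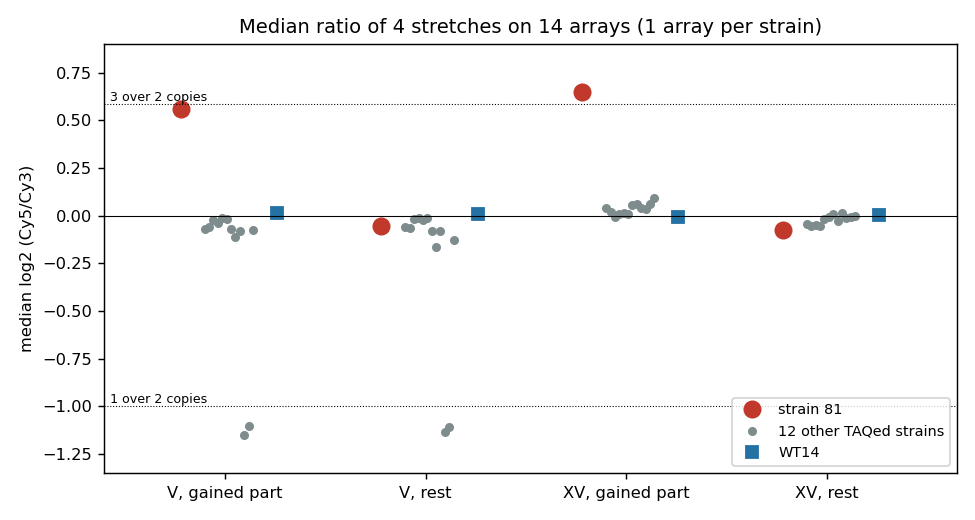
Median log2 (Cy5/Cy3) of the gained part and the rest of chromosomes V and XV, with strain 81 (red), the 12 other TAQed strains (gray) and WT14 (blue), each point 1 array. Strain 81 stands at 0.56 and 0.65 in the gained parts and at -0.06 and -0.08 in the rest, while strains 113 and 117 lie near -1 on all of V.

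The rest of both chromosomes showed no such gain. On V, from 348004 to the right end, the median log2 ratio was -0.06 in strain 81, between -0.16 and -0.01 in 10 other TAQed strains and 0.01 in WT14. On XV, from the left end to 414243, it was -0.08 in strain 81, between -0.06 and 0.01 in the 12 other TAQed strains and 0.00 in WT14. The value of strain 81 on the left part of XV was therefore the lowest of the 14 arrays, by 0.02. The medians of the 14 other chromosomes of strain 81 ranged from -0.14 on III to 0.06 on IV, and those of WT14 from -0.01 to 0.03.

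Windows and single probes describe how evenly the gains filled their stretches, which had been called on this same array at the same limit. All 34 windows of 10 kb that lay within the gained part of V, and 66 of 67 within the gained part of XV, had a mean log2 ratio above 0.3. Over the whole array of strain 81, 8.89% of the windows passed this limit, against 1.33% on the array of WT14. In strain 81, 4 of 1038 windows on the 14 other chromosomes passed, against 14 in WT14. At 97.2% of 1725 probes in the gained part of V and 96.7% of 3272 probes in that of XV, the ratio of strain 81 was above that of each of the 13 other arrays. Over all nuclear probes this held for 20.8%. It held for 15.0% of the probes in the left part of XV and for 28% of those in the right part of V.

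Within the array of strain 81, dim and bright probes gave similar levels and different scatter. Among probes of the gained part of V with a Cy3 signal of 18 or less, the median log2 ratio in strain 81 was 0.56 with a probe SD of 0.62. Among those over 28 it was 0.57 with a probe SD of 0.17. The same probes had SDs of 0.11 and 0.16 in WT14. In the gained part of XV the medians of the same classes were 0.63 and 0.67, with probe SDs of 0.49 and 0.19 in strain 81, against 0.11 and 0.15 for the same probes in WT14.

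Neither gain was flat. In strain 81 the 50 kb bins of V ran from 0.60 beside the boundary to 0.47 at the left end, and those of XV from 0.71 beside the boundary, with a highest bin of 0.75, to 0.32 at the right end. The other arrays showed part of the same shape. On the first 50 kb of XV right of the boundary, the arrays without an event there lay between -0.01 and 0.15, and in the last bin before the right end between -0.23 and 0.07. After the median of the 12 other TAQed arrays was subtracted probe by probe, the bins of V lay between 0.59 and 0.63, and those of XV between 0.57 and 0.62 apart from the last bin at 0.40, which held 74 probes. The same trend was present on chromosomes with no event. Over the 14 other chromosomes, probes 20 to 50 kb from an end had a median of -0.12 in strain 81, against -0.08 as the median of the 12 other TAQed strains and 0.01 in WT14. Probes over 300 kb from an end had a median of 0.05 in strain 81, against 0.07 as the median of the other TAQed strains and -0.01 in WT14.

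**Figure D2:**
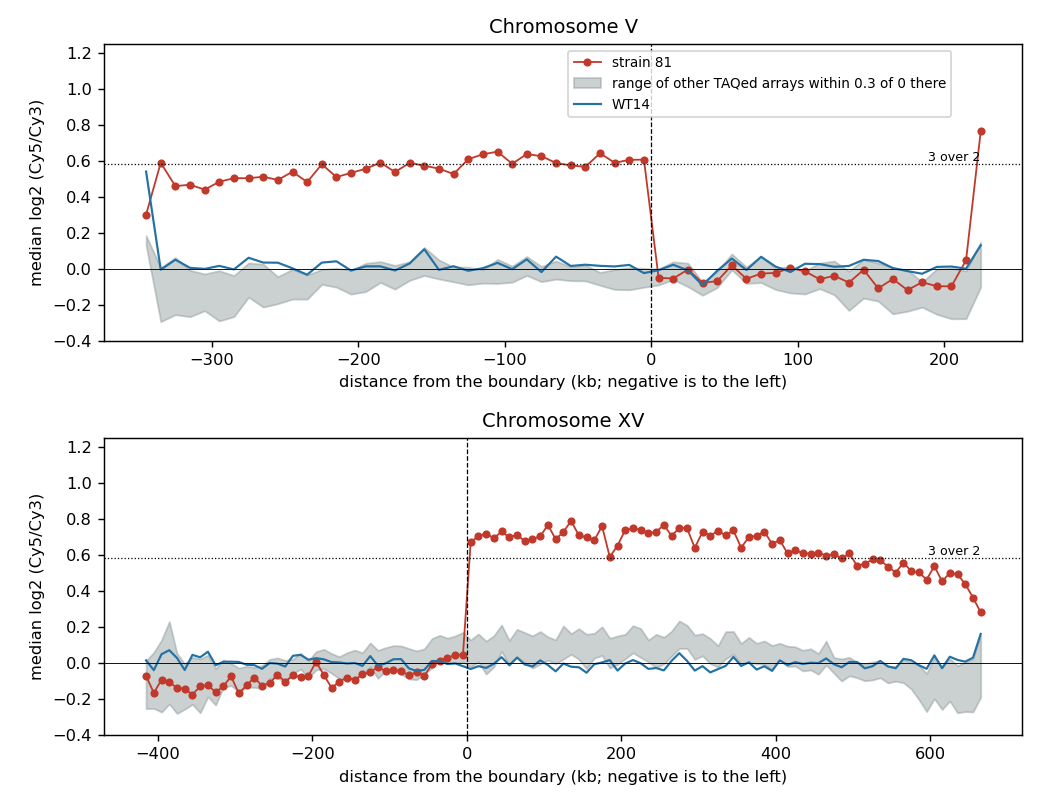
Median log2 (Cy5/Cy3) in 10 kb windows along chromosomes V and XV, by distance from the boundary in kb, in strain 81 (red), the range of the other TAQed arrays that lay within 0.3 of 0 in the window (gray band) and WT14 (blue). The dotted line marks 3 copies over 2, and strain 81 crosses between both levels at the boundary and again at the right end of V.

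The XV gain was 0.09 higher than the V gain in strain 81. On the 11 other arrays with no event on V, the same difference between both stretches had an SD of 0.07. After subtraction of the median of the 12 other TAQed arrays the order turned, with 0.62 on XV and 0.64 on V. The data therefore gave no order of the gains that held under each setting. Other gains of at least 100 kb in the series had medians of 0.42 to 0.71 over 8 regions, among them 0.58 on VIII in strain 76 and 0.64 on IV in strain 106. Both gains of strain 81 fell in that range.

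Both boundaries were abrupt. From the 20 kb left of the V boundary to the 20 kb right of it, the median log2 ratio of strain 81 changed by -0.68. The same measure lay between -0.01 and 0.05 in the 12 other TAQed strains and was 0.02 in WT14. At the XV boundary the change from left to right was 0.64 in strain 81, between -0.04 and 0.07 in the 12 other TAQed strains and -0.02 in WT14. The positions were picked on the array of strain 81, so these steps describe it and were bound to be large there.

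On XV the change fell between 2 neighboring probes. The last 10 probes before it, up to 414243, had log2 ratios of -0.38 to 0.25 in strain 81, with a median of 0.04. The first 10 after it, from 414470, had 0.25 to 1.12, with a median of 0.69. In WT14 these 20 probes lay between -0.22 and 0.09. Of the 10 probes right of the boundary, 9 were higher in strain 81 than in each of the other arrays, and 1 of the 10 left of it was. The gap between the probes on both sides was 226 bases.

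On V the segmentation put the last gained probe at 347972 to 348031, but most probes had dropped before it. The 10 probes up to 347197 had log2 ratios of 0.51 to 1.03 in strain 81, with a median of 0.64, and each was higher than on every other array. The next 3 probes, from 347499 on, read 0.05, 0.00 and 0.06 in strain 81, against 0.18, -0.08 and -0.13 in WT14. The probe from 347972 to 348031 then read 1.01 in strain 81 and 0.27 in WT14, and the overlapping probe from 348004 read 0.17 in strain 81 and 0.05 in WT14. That single high probe set the end of the segment. When V was segmented again with only the 1922 probes that read within 0.25 of each other in strains 113 and 117, the gain ended at 346904, and the next of these probes began at 347499. They placed the V boundary within these 594 bases and the high probe outside it. The probe from 347138 to 347197 lies between them and read 0.78 in strain 81, but it was lower by 0.54 in strain 113 than in strain 117 and was not among the 1922, so it does not narrow the interval.

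**Figure D3:**
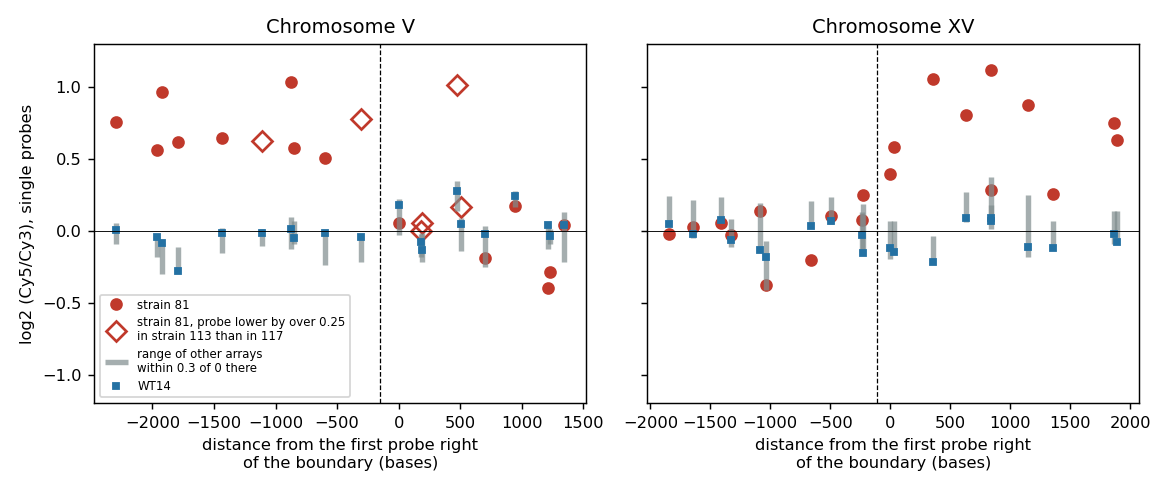
Log2 (Cy5/Cy3) of the 10 probes on each side of the boundaries on V and XV, by distance in bases from the first probe to the right, in strain 81 (red), the range of the other arrays with no event there (gray bars) and WT14 (blue). Open diamonds are V probes that read lower by over 0.25 in strain 113 than in strain 117, among them the probe at 1.01 right of the boundary.

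The high probe was 1 of many on the right part of V. WT14 received its homologues from 2 different strain backgrounds, and a probe can bind the DNA of one background better than that of the other. Strains 113 and 117 were used to sort the probes of V. Each read near 1 copy over the whole chromosome (medians of -1.15 and -1.10 on the left part), while single probes differed strongly between them. Whether these differences come from the 2 backgrounds was not tested. The probe at 347972 read -1.88 in strain 113 and -0.18 in strain 117. All probes of V were therefore grouped by the ratio in strain 113 minus that in strain 117, which uses no value of strain 81. Which parent each group of probes stands for was not determined here. Probes that overlap a short stretch of very high ratio on V (115270 to 116887) were left out of the left part.

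Right of the boundary, where the bulk of V read as unchanged, strain 81 was far from uniform. Its 713 probes within 0.25 between strains 113 and 117 had a median log2 ratio of -0.08, against -0.15 to 0.00 in the 10 other TAQed strains and 0.01 in WT14. Its 27 probes lower in strain 113 by over 2 had a median of 0.84, a ratio of 1.79. The same probes read -0.61 in strain 106, -0.25 to -0.07 in the rest of the 10 other TAQed strains and -0.08 in WT14. The 35 probes lower in strain 113 by 1 to 2 had 0.42 in strain 81, against -0.15 to -0.01 in the others and 0.03 in WT14. The 83 probes lower by 0.5 to 1 had 0.25 in strain 81, against -0.20 to -0.04 in the others and -0.01 in WT14. In the opposite direction, the 19 probes higher in strain 113 by over 0.5 had a median of -0.40 in strain 81, against -0.18 to 0.04 in the others and 0.09 in WT14. Over the 7 classes the median of strain 81 thus ran without exception from high, where strain 117 kept the signal, to low, where strain 113 kept it.

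Single probes followed the same order. All 27 probes lower in strain 113 by over 2 had a log2 ratio above 0.3 in strain 81, against at most 3.70% of them in any of the 10 other TAQed strains or WT14. On the whole array of strain 81, 14.2% of probes passed this limit. The right end of V, from 566942 to 569479, held 14 probes under -2 in strain 113, so much of this class may lie in that short end. That end was itself called as high on the array of strain 81. The median of the 27 without it was not computed. Without the last 20 kb of V, probes lower in strain 113 by over 1 exceeded those within 0.25 by 0.56 in strain 81, against 0.67 with it. Of the 19 probes higher in strain 113 by over 0.5, 14 were under -0.3 in strain 81, against at most 15.8% of them in any of the others. Of the 713 probes within 0.25, 18 (2.5%) were above 0.3 and 87 (12.2%) under -0.3. The share of all probes of the array under -0.3 was not computed, so the 14 of 19 have no background over the whole array. The other arrays were also less noisy, with a noise SD of at most 0.133 against 0.186 in strain 81.

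**Figure D4:**
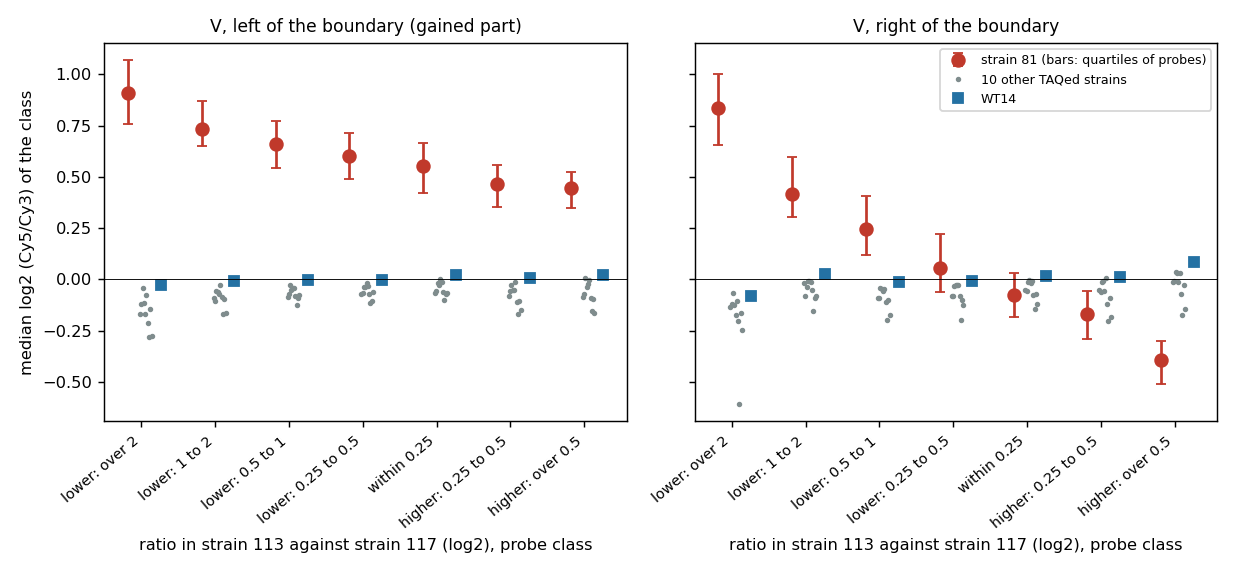
Median log2 (Cy5/Cy3) of the probes of chromosome V left and right of the boundary, in 7 classes by how the probe read in strain 113 against strain 117, in strain 81 (red, bars are the quartiles over probes), 10 other TAQed strains (gray) and WT14 (blue). In strain 81 the medians run from 0.91 to 0.44 on the left and from 0.84 to -0.40 on the right, while those of WT14 stay between -0.08 and 0.09.

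The gained part of V showed the same order with a smaller range. In strain 81 the median log2 ratio was 0.91 for the 24 probes lower in strain 113 by over 2, 0.74 for the 44 probes lower by 1 to 2, 0.55 for the 1206 probes within 0.25 and 0.44 for the 32 probes higher by over 0.5. In WT14 the same classes read -0.03, -0.01, 0.02 and 0.02. Put as 1 difference, the probes lower in strain 113 by over 1 exceeded those within 0.25 by 0.67 right of the boundary in strain 81, against -0.13 to -0.01 in the 10 other TAQed strains and -0.03 in WT14. Left of the boundary they exceeded them by 0.21 in strain 81, against -0.15 to -0.02 in the 10 others and -0.04 in WT14.

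The class difference ran along all of the right part of V. In 5 bins of 50 kb from the boundary to the right end, the probes lower in strain 113 by over 0.5 exceeded those within 0.25 by 0.44, 0.44, 0.40, 0.26 and 0.72 in strain 81. On the 10 other TAQed arrays and WT14 the same difference lay between -0.26 and 0.05. In the 7 bins left of the boundary it was between 0.09 and 0.30 in strain 81 and between -0.07 and 0.02 on the others. The probes within 0.25 stayed between -0.08 and -0.06 in every bin right of the boundary in strain 81. The spread of the brighter probes (5th to 95th percentile in 50 kb windows, relative to the median window of the array) was 1.49 in the median of the 5 windows right of the boundary in strain 81 and 1.03 to 1.16 on the others.

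**Figure D5:**
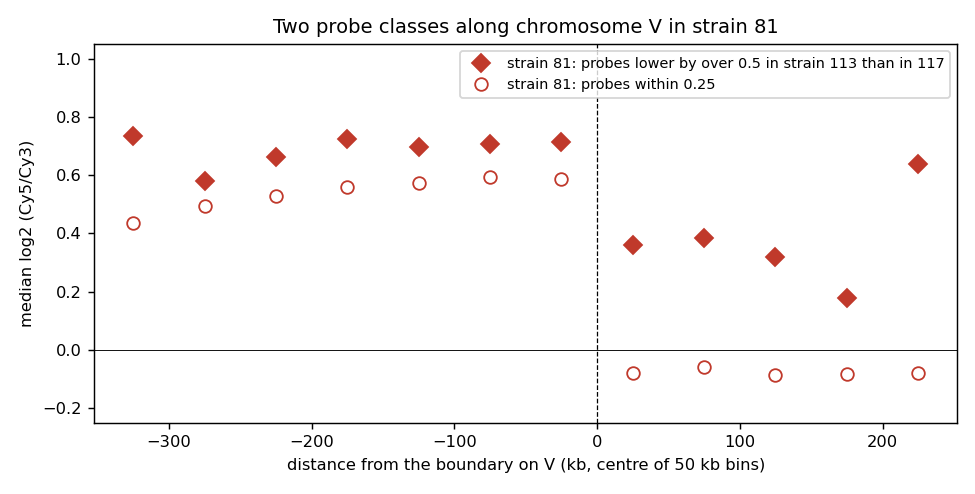
Median log2 (Cy5/Cy3) in strain 81 of V probes lower by over 0.5 in strain 113 than in strain 117 (filled) and of V probes within 0.25 (open), in 50 kb bins by distance from the boundary. To the right of the boundary the open points lie between -0.08 and -0.06 and the filled ones between 0.18 and 0.64.

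Other chromosomes with 1 copy elsewhere in the series were used to ask whether this order was found off V. Probes were sorted by how far they read from the rest of a stretch with about 1 copy on I (strain 113), VIII (strain 119), X (strain 117), XIII (strain 101) and XIV (strain 107). In strain 81 the median of the 10 resulting classes differed from that of the probes within 0.25 of the stretch by -0.09 to 0.16. For the 5 classes over 0.5 below their stretch this difference was -0.09 to 0.02 in strain 81, against -0.34 to -0.02 in the other TAQed strains. On I, VIII, X and XIV it was higher in strain 81 than on each other array, by at most 0.10, which is the direction of the shift on V at a smaller size. For the 5 classes over 0.5 above their stretch, strain 81 was higher than each other array on X, lower on I and within their range on VIII, XIII and XIV. These classes rest on 1 array each, where those of V rest on the difference of 2, so their sizes are not matched to those of V. For the gained part of XV only the stretch from 980207 to 1071114 could be sorted, in strain 117. There, 14 probes over 0.5 above the stretch read 0.61 in strain 81 and the 385 within 0.25 read 0.49. The difference of 0.12 compares with 0.03 to 0.10 in other TAQed strains and 0.07 in WT14, and only 2 probes lay on the opposite side. The array thus gave no classes for most of the gained part of XV.

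The right end of V stood out within this pattern. A last segment from 566942 to 576657, with 22 probes, had a median log2 ratio of 0.73 in strain 81, against -0.06 for the 97 probes in the 20 kb before it. It was shorter than the 20 kb asked of a region. Of its probes, the 14 from 566942 to 569479 that read under -2 in strain 113 had log2 ratios of 0.54 to 1.57 in strain 81, with a median of 0.88, a ratio of 1.84. Their medians were -6.36 in strain 113, -0.27 in strain 117, -0.76 (strain 106) to -0.06 in the 10 other TAQed strains and -0.09 in WT14. At all 14 probes strain 81 was higher than each of the other arrays, which held for 20.8% of all nuclear probes. The segment had been called as high on this same array, so high values there were largely fixed in advance. The 8 outer probes had a median of 0.28 in strain 81, 0.20 to 1.15 in the 10 other TAQed strains and 0.69 in WT14. Chromosome ends with high values in WT14 read lower in strain 81. At the 9 ends whose last 10 kb read above 0.4 in WT14, the medians were -0.04 to 0.29 in strain 81 and 0.41 to 0.83 in WT14, and strain 81 was below each of the other TAQed strains at 7 of them.

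The array of strain 81 held 4 short segments of 10 probes with much higher single probes, on III (up to 9.13) and VIII (up to 3.97) outside the gains and 1 in each gained part. On V, 6 of 10 probes from 115270 to 116887 had a log2 ratio above 1.5 in strain 81, up to 6.35. On XV, 4 of 10 probes from 721967 to 723601 did so, up to 7.32. Probes of each of the 4 stretches exceeded 1.5 in 11 of the 12 other TAQed strains and at no probe in WT14, so they were not particular to strain 81. The strains had received a vector for TaqI, whose part in these values was not tested.

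No gene has a value of its own here, because the probes carry no gene names and no annotation of build sacCer2 was used. The names of yeast genes give their arm, and RefSeq (assembly R64) was read for these names only. The V boundary lies in the right arm, beyond the centromere, so the gained part holds the whole left arm, with 79 protein-coding genes. They include URA3, which encodes orotidine-5′-phosphate decarboxylase of pyrimidine synthesis, CAN1, the arginine permease whose loss gives canavanine resistance, and CIN8, a kinesin motor of the mitotic spindle. The 209 protein-coding genes of the right arm are divided by the boundary. From lists of genes of double-strand break repair, polarity and cytokinesis, and spindle and kinetochore, RAD24, which encodes a checkpoint clamp loader, and SPC25, a kinetochore subunit, belong to that arm. They were not placed to one side or the other.

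The XV boundary also lies right of the centromere. The left arm, with 166 protein-coding genes, therefore lies outside the called gain. NUF2, a kinetochore subunit, is the only gene of the lists on that arm. The 379 genes of the right arm are divided by the boundary, with most of the arm on the gained side. ADE2 and HIS3, marker genes of adenine and histidine synthesis that are mutated in the YPH499 parent, belong to this arm. So do 8 genes of the lists. DNL4 encodes the DNA ligase of end joining, REV1 a translesion polymerase and RAD17 a checkpoint clamp subunit. MYO2 encodes a type V myosin, WHI5 a repressor of the start of the cell cycle, WHI2 a factor of the general stress response, ASE1 a microtubule bundling protein of the spindle midzone and BUB3 a spindle checkpoint protein. These genes, like ADE2 and HIS3, were not placed to one side of the boundary or the other, so none of them is shown to be gained. Their level of expression was not measured in this series.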

How the data were processed

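Genomic DNA of 13 TAQed strains and WT14 was hybridized to custom Agilent tiling arrays, 1 array per strain. The authors deposited spot tables of Agilent Feature Extraction 11.0.1.1, whose processed intensity is background-subtracted and dye-normalized, and a value table of log10 ratios for 47691 spots, which matched the ratio column of the spot tables within 4.9e-08 for strain 81. The deposited median signals and local backgrounds are intensity values without normalization. Positions follow build sacCer2.

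From these, log2 (Cy5/Cy3) was computed from the processed signals. Control spots and outlier spots (105 for strain 81) were left out, spots of a probe were averaged, probes spanning over 100 bases were dropped, with the array median set to 0 and no loess, which left 59116 nuclear probes for strain 81. Each chromosome was divided by optimal partitioning (minimum 10 probes a segment, each added segment costing 10 times the noise variance multiplied by ln of the probe number), and segments past 0.3 or -0.3 were called. Called segments less than 20 kb apart were joined, and regions of at least 20 kb were kept. This was tested on simulated ratios with the noise of the dim array. Windows of 10 kb needed 10 probes.

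With 1 array per strain there was no test. The gained stretches, the gene lists and the probe classes were chosen with earlier results of these data known. Genes were to be named where a table of the files' build placed them, and list members inside the gains named. No such table was used, so genes are given by arm only, with no value. No sequence is shown, since the analysis used no genome of that build. Alternatives covered background correction (with limma 3.58.1 for normexp and loess, R 4.3.3), the source of the values, dim-probe filters, centering, probe biases, segmentation, thresholds, flanks and windows. Median signals replaced the mean signals that had been planned. Python 3.11.15 with numpy 2.4.6 and pandas 2.3.3 was used.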

Additional observations from a re-analysis of the deposited data

Results flagged for a closer look

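The signal of mitochondrial DNA lies outside the nuclear comparison and was above that of the control. The median log2 ratio of 323 mitochondrial probes was 0.52 in strain 81, against 0.09 over 363 probes in WT14. It lay between -0.60 and 0.80 in the other TAQed strains apart from strain 84, and 3 of them were above strain 81. In strain 84, where 11.3% of the mitochondrial spots were well above background in Cy5, the measured median of -8.56 shows only that the signal was near background. In strain 81, 40 mitochondrial spots carried an outlier flag, against 0 in WT14.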

How the results depend on the processing

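The limits are those of 1 dim array with no replicate, no dye swap and a shared WT14 reference. No paired analysis was possible because each strain has 1 array and the comparisons rest on no test. Of 91 values under other settings, 66 moved by less than the SD of the same measure over the other arrays (for counts and shares, stayed within 1.5 times). Some of the 66 could not move, since centering on other chromosomes leaves steps and differences as they are. The count is therefore no measure of stability. Normexp, whose offset of 50 exceeds the median signal of the array, shrank the ratios to 0.14 on V and 0.15 on XV, the steps to -0.13 and 0.15, the difference of the arms to 0.0034 and the class difference to 0.15, and left 0 regions. Subtraction of the local background from the median signals gave 0.51 on V, 0.58 on XV, steps of -0.59 and 0.59, a class difference of 0.53 and 3 regions, with a loss of -0.53 on XII over 20.5 kb and 23 probes. Subtraction of the median of the 12 other TAQed arrays gave 0.64 on V, turned the difference of XV minus V to -0.015 and gave a class difference of 0.73. Subtraction of the WT14 ratio gave a V step of -0.70 and a class difference of 0.73. Flanks of 50 kb gave steps of -0.66 and 0.68. A call threshold of 0.2 gave 4 regions, with additional losses of -0.20 on III and -0.21 on IX. The settings that follow were chosen after seeing the data, as were all those of the class difference. V probes within 0.25 between strains 113 and 117 alone gave a V step of -0.66. The class difference was 0.46 with probes lower in strain 113 by over 0.5, 0.91 with those lower by over 2, 0.56 without the last 20 kb of V and 0.56 with only probes well above background on all 14 arrays.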
